A study of Mus musculus with 8 samples.

Results

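The EGF receptor family and its ligands were followed in mouse skin epidermis through 9 genes, found by matching the identifiers in the count tables to gene symbols. They are the receptors Egfr, Erbb2 and Erbb3, the ligands Areg, Ereg, Hbegf, Tgfa and Btc, and the feedback inhibitor Errfi1. All 9 were found among the 54838 genes of the tables and all 9 had enough counts to be tested. The material was the outer epithelium of the skin, freed with trypsin, from control mice and from mice labelled Ovol1/2 iDKO at 25 and 52 DPI, terms given here as the labels write them. Each of the 4 groups held 2 biological replicates, 8 RNA-seq libraries in all. The labels give no age, sex, strain, inducer or Cre driver and do not say whether animals were pooled. They say nothing on separate animals beyond the replicate numbers, so p-values measure the spread between these libraries.

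Ligands of the EGF family are made as membrane-anchored precursors that are cut free by ADAM proteases. They bind EGFR, which pairs with itself or with another family member and signals through RAS, the MAP kinases ERK1 and ERK2, and phosphoinositide 3-kinase. ERBB2 binds no known ligand of the family and acts as a partner, and ERBB3 has a weak kinase and relays signals when paired. In the epidermis the pathway is known for driving keratinocyte growth and migration, in wound repair above all. ERRFI1, also called MIG6, is induced by the pathway and binds and inhibits the kinase of EGFR.

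The libraries held 9824307 to 50711381 counts. Those of replicate 2 had 95.4% to 95.7% of their stranded counts on one strand and those of replicate 1 had 49.8% to 49.97%, and values are compared below mainly within pairs of the same time and replicate number. The basal keratinocyte keratin Krt5 stood at 5243.5 to 17746.1 CPM (read counts scaled to library size, by TMM) and the 7 basal keratinocyte markers summed to 25719.1 to 51067.6 CPM. The 5 endothelial markers summed to 1.93 to 3.95 CPM. The counts of the targeted genes were not lower where the label says iDKO. Ovol1 was at 36.3 to 157.2 CPM in the control libraries and 99.0 to 204.0 CPM in those labelled iDKO, and Ovol2 at 7.52 to 24.9 and 9.16 to 44.6 CPM. The sources used here do not give the deleted part, and a count over a whole gene need not show it. Groups are therefore called control and labelled iDKO, and each direction given below is one between labels. Zeb1, a repressor of epithelial genes that binds E-box sequences, stood at 2.04 to 3.33 CPM in the control libraries and at 14.4 to 35.3 CPM in those labelled iDKO, with no overlap. The edgeR test without a replicate block, used below, called 0 genes across both times, so Zeb1 was not called by it. The share of all genes that separate in this way is not given here, so the separation of Zeb1 is a description only.

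The ligand genes lie in 3 places in the genome. Ereg (chromosome 5, 91074622 to 91093646, plus strand), Areg (91139599 to 91148432, plus strand) and Btc (91357261 to 91402994, minus strand) are neighbours in the mouse build GRCm38, and with Epgn, a further ligand gene of the family, they span 375.5 kb. No other protein-coding gene lies between them in the annotation. Tgfa is on chromosome 6 (86195223 to 86275719) and Hbegf stands alone on another chromosome. Egfr (16752203 to 16918158) and Erbb2 (98412470 to 98437716) are far apart on chromosome 11, Erbb3 is on chromosome 10 (128567523 to 128589652) and Errfi1 on chromosome 4 (150853919 to 150868892). Erbb2 overlaps the coding gene Mien1 on the other strand. In the replicate 2 libraries at least 99.0% of each member's stranded counts lay on its own strand, except for Ereg with at least 75.0% on few counts. In those of replicate 1, strand cannot tell a member from an antisense neighbour that overlaps it. Counts without regard to strand were used in all libraries, and for some members with such a neighbour they were lower than the stranded ones. In control replicate 2 at 25 DPI, Tgfa had 1187 second-strand and 1129 unstranded counts, and Erbb2 10618 and 10512.

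Promoters were read because the Zeb1 values did not overlap between the labels and because the neighbouring ligand genes Areg and Btc had like log2 differences within 3 of 4 pairs (-1.47 and -1.23, 0.96 and 0.94, 0.33 and 0.25). In the replicate 2 pair at 52 DPI they differed, at 0.07 for Areg and 2.45 for Btc. RefSeq promoter sequences (GRCm38.p6) were given for 6 members, with 7 start sites. The 250 bases before each start were searched on both strands for CAGGTG, the E-box bound by ZEB proteins, for CCGTTA, an OVOL core, and for TGANTCA, the AP-1 motif. TGACGTCA, the cyclic AMP response element, was added after the sequences were seen, and no match overlapped another. The 4 windows with a match are shown 5′ to 3′ on the gene's own strand, with the matches in capitals.
Areg: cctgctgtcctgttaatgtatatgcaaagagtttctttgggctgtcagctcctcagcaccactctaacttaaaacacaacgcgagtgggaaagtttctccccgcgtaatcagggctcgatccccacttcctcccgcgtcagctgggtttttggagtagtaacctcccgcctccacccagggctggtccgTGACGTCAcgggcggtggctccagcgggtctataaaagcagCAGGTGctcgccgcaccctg
Btc: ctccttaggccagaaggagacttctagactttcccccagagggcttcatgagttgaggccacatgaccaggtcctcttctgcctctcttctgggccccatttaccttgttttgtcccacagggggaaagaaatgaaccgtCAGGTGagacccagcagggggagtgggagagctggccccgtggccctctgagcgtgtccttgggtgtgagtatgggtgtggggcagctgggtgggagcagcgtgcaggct
Tgfa: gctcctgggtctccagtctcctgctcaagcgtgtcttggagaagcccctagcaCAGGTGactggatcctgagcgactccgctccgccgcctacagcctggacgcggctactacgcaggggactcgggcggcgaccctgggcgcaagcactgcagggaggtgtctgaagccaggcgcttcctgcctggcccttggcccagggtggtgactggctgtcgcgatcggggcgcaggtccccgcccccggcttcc
Errfi1, the second start: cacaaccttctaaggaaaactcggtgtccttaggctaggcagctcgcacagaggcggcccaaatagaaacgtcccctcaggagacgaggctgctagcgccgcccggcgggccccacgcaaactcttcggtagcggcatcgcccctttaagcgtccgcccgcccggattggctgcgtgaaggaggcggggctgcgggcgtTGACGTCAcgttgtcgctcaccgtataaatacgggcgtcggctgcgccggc
The windows are chr5:91139349-91139598 for Areg, chr5:91402995-91403244 for Btc (minus strand), chr6:86194972-86195221 for Tgfa and chr4:150854820-150855069 for Errfi1. CAGGTG begins 20 bases before the start of Areg, 110 before that of Btc and 197 before that of Tgfa. It is in 17.2% of the 32851 promoter windows of the table. TGACGTCA begins 61 bases before the start of Areg and 51 before the second start of Errfi1, and is in 1.55% of the windows. The letters CCGTTA, in 2.18% of windows, and TGANTCA, in 6.75%, were not found in the members' windows. Those of Egfr and Erbb2 and the first start of Errfi1 held none of the 4 motifs. These matches are letters in a window and were not set against binding data.

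Levels can be compared between genes only per length. Length was that of all annotated exons of a gene, with overlaps counted once, and orders and shares of levels may depend on this choice. On a scale of CPM per kilobase of exon, the median over the 8 libraries was highest for Errfi1 at 72.6, which put it at the 96.6th percentile of the 14109 tested coding genes. Erbb3 followed at 49.2, Erbb2 at 43.4, Hbegf at 31.8, Egfr at 20.4 and Areg at 16.3. Tgfa stood at 3.63, Btc at 0.496 and Ereg at 0.0972, the last at the 4.9th percentile. Neighbours in this order overlapped in range with the exception of Areg (7.42 to 51.1) and Tgfa (0.984 to 5.57). Hbegf lay above Egfr in 8 of 8 libraries although their ranges overlap, while Erbb3 lay above Erbb2 in 4 of 8. As this is bulk tissue, fewer cells that express a gene and less RNA per cell cannot be told apart.

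**Figure D1:**
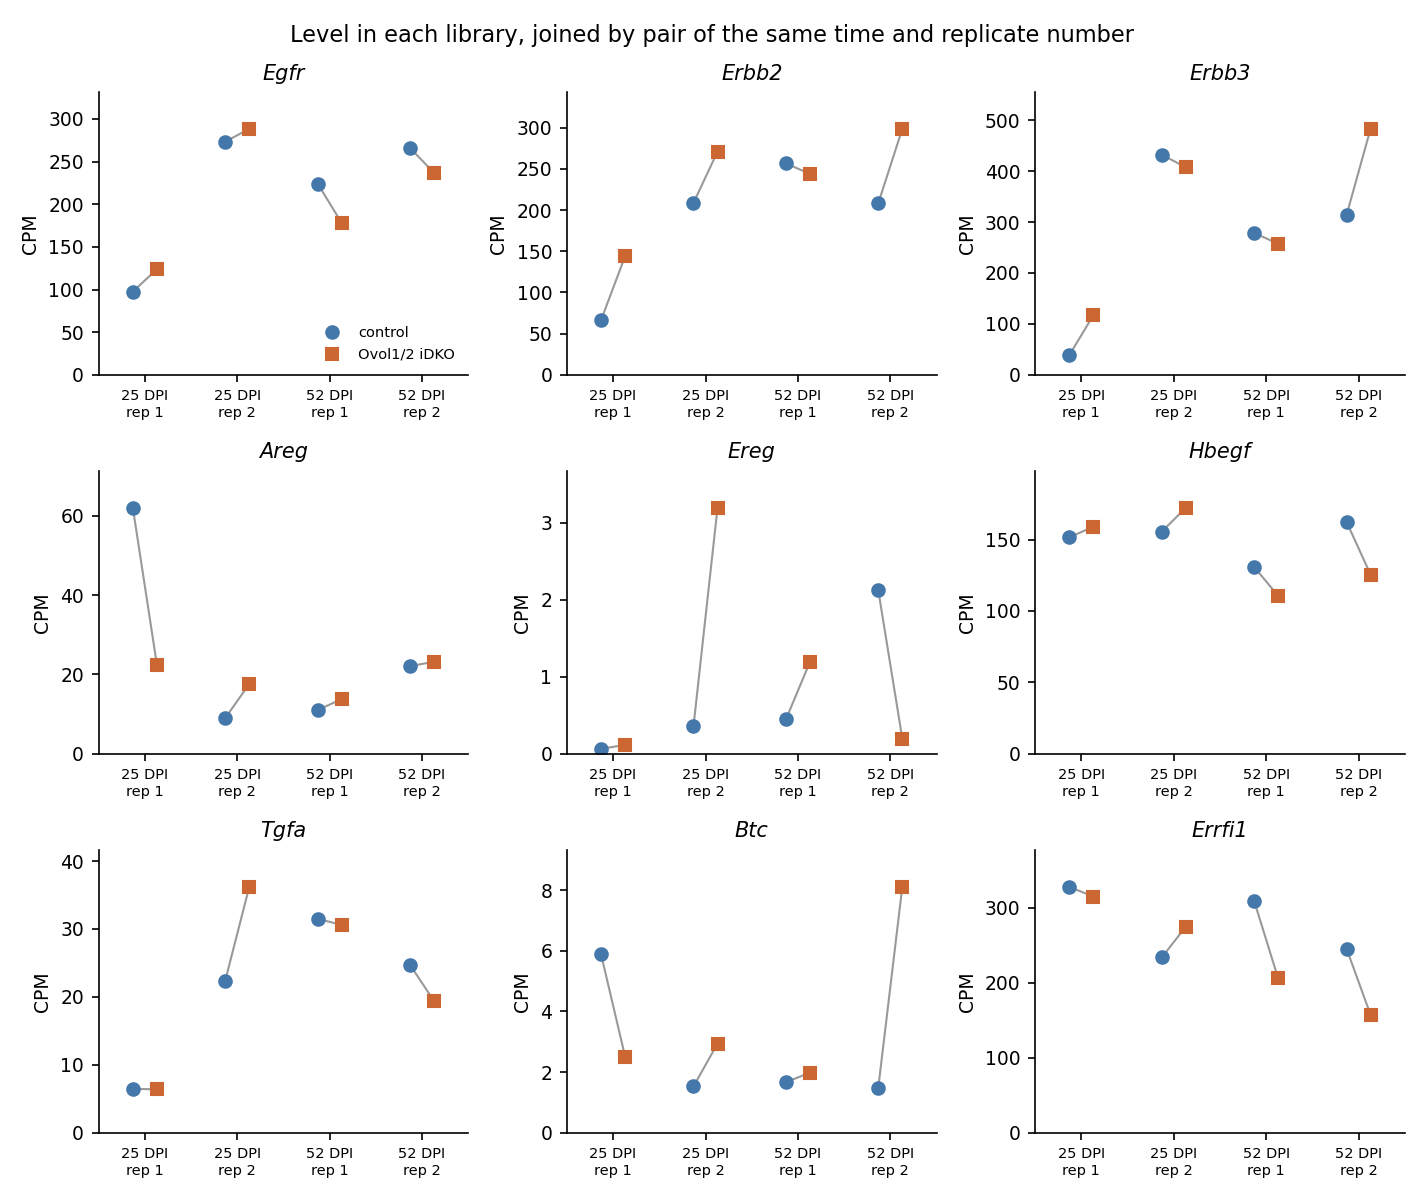
Level of each of the 9 genes in CPM (vertical axis, from 0) in the 8 libraries, with the control (circle) and iDKO-labelled (square) library of the same time and replicate number joined by a line. Control replicate 1 at 25 DPI has the lowest value of all 3 receptors and the highest of Areg, and the lines of most genes slope both ways.

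Egfr encodes the receptor of all 5 ligands followed here. Its values at 25 DPI were 97.5 and 123.9 CPM in the control and iDKO-labelled libraries of replicate 1 and 273.4 and 288.4 CPM in those of replicate 2. The 52 DPI libraries held 224.2 and 178.1 CPM in replicate 1 and 265.9 and 236.9 CPM in replicate 2. Within pairs Egfr was thus slightly higher in both iDKO-labelled libraries at 25 DPI and lower in both at 52 DPI, by -0.33 to 0.34 on the log2 scale, while the groups overlapped at both times. The difference between replicates 1 and 2 at 25 DPI was larger than that between labels. By the edgeR quasi-likelihood test the labels differed by 0.15 ± 0.68 (SE, log2) at 25 DPI and by -0.24 ± 0.68 at 52 DPI, each with an adjusted p of 1.0.

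Erbb2 encodes the partner receptor that binds no ligand of its own. It was at 66.5 and 144.1 CPM (control, then labelled iDKO) in replicate 1 at 25 DPI and at 208.7 and 271.0 CPM in replicate 2. Values at 52 DPI were 256.7 and 243.9 CPM in replicate 1 and 208.4 and 298.6 CPM in replicate 2. The iDKO-labelled library was the higher one in 3 of 4 pairs, and the groups overlapped at both times. The edgeR fit gave 0.59 ± 0.67 (SE, log2) at 25 DPI and 0.22 ± 0.67 at 52 DPI, with adjusted p-values of 1.0. Fitted within pairs by a block for each time and replicate number, the difference at 25 DPI was 0.74 ± 0.28, with an unadjusted p of 0.0329 and an adjusted p of 0.731 by edgeR.

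Erbb3 encodes the receptor with the weak kinase. Its value in control replicate 1 at 25 DPI, 38.7 CPM, was the lowest of the 8, against 117.0 CPM in the iDKO-labelled library of that pair. The other pair at 25 DPI stood at 432.2 and 407.8 CPM. At 52 DPI the pairs stood at 278.6 and 257.4 CPM and at 313.7 and 483.1 CPM. In 2 pairs it was higher and in 2 lower where labelled iDKO, and Erbb3 spanned a 12.5-fold range over the libraries, the widest of the receptors. By edgeR the difference was 0.16 ± 1.06 (SE, log2) at 25 DPI, and 0.75 ± 0.43 within pairs with an adjusted p of 0.731. With DESeq2, the block within time and the replicate 2 pair at 25 DPI left out, the estimate for Erbb3 was 1.59. Only the pair with control replicate 1 then stood for that time. This was the 1 setting of those tried in which a member was called. It called more of all genes at 25 DPI than the same fit with all pairs, so the call is not read as a result on Erbb3.

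The 3 receptors moved together over the 8 libraries. Pearson's r of log2 CPM was 0.85 for Egfr and Erbb2, 0.94 for Egfr and Erbb3 and 0.95 for Erbb2 and Erbb3 (n = 8, given as a description). The libraries share replicate number, depth and the library that stands apart, control replicate 1 at 25 DPI. In that library tested coding genes with over 5 kb of exon lay at a median of -0.73 (log2) from their mean over libraries and those under 2 kb at 1.26. Its iDKO-labelled partner was at -0.39 and 0.81 in the same order, and between the partners genes over 5 kb differed by a median of 0.31 (log2, labelled iDKO minus control) and those under 2 kb by -0.42. All 3 receptor genes have over 5 kb of exon (11326, 5210 and 6016 bases for Egfr, Erbb2 and Erbb3). The part of length in the receptors' values in that pair was not tested. In the other 3 pairs the medians of the length classes lay between -0.06 and 0.1.

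Areg encodes amphiregulin, a ligand that keratinocytes make themselves. It was at 62.0 and 22.5 CPM in replicate 1 at 25 DPI, from 949 and 197 counts, and at 9.01 and 17.6 CPM in replicate 2. At 52 DPI the values were 11.0 and 13.8 CPM in replicate 1 and 22.1 and 23.2 CPM in replicate 2. Areg was lower in the iDKO-labelled library of the first pair and higher in that of the other 3, and control replicate 1 at 25 DPI held both the largest value and the largest difference. The fitted difference was -0.83 ± 0.86 (SE, log2) at 25 DPI and 0.16 ± 0.85 at 52 DPI, both with an adjusted p of 1.0. Without control replicate 1 at 25 DPI the estimate at that time turned to 1.11. Areg has 1215 bases of exon, within the class of short genes that was high in that library. That library also had the largest sums of the 7 T cell markers (682.9 CPM, against 69.2 to 419.0 CPM elsewhere, all 7 detected), the 6 melanocyte markers (366.7 CPM against 31.0 to 46.2) and the 5 erythroid markers (110.9 CPM against 0.628 to 18.3). The melanocyte gene Dct was at 217.2 CPM there and the T cell gene Cd3e at 72.2 CPM. Cd3e was higher in the iDKO-labelled libraries at 52 DPI, at 75.2 CPM in replicate 1 and 99.6 CPM in replicate 2. It was thus not highest where the T cell sum was. The part of these cells in the Areg value was not tested.

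Hbegf encodes a heparin-binding ligand that is shed in wounds and was the steadiest of the 9 genes. It was at 151.6 and 159.0 CPM in replicate 1 at 25 DPI and at 155.6 and 172.2 CPM in replicate 2. Later, at 52 DPI, the pairs stood at 130.8 and 110.6 CPM in replicate 1 and at 162.4 and 125.5 CPM in replicate 2. Its coefficient of variation over the 8 libraries was 14.5%, against 23.0% to 118.8% for the other 8. The iDKO-labelled value was higher in both pairs at 25 DPI and lower in both at 52 DPI, and in each of these times the 2 control and 2 iDKO-labelled values did not overlap. The share of all genes that separate in this way is not given here, so the separation is a description only. In edgeR the estimates were 0.11 ± 0.45 (SE, log2) at 25 DPI and -0.31 ± 0.45 at 52 DPI, with adjusted p-values of 1.0. The difference of these effects was -0.42 with a 95% interval of -1.90 to 1.06, and within pairs -0.41 with an interval of -1.08 to 0.25 and an adjusted p of 0.807.

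Tgfa encodes transforming growth factor alpha, an autocrine ligand of keratinocytes. It was at 6.47 and 6.39 CPM in replicate 1 at 25 DPI and at 22.4 and 36.2 CPM in replicate 2. The pairs at 52 DPI stood at 31.5 and 30.6 CPM in replicate 1 and at 24.7 and 19.4 CPM in replicate 2. Both low values came from the replicate 1 libraries at 25 DPI, of either label, and 1 of 4 pairs was higher. Tgfa has 6490 bases of exon, in the length class that was low in those 2 libraries. Fitted by edgeR, the differences were 0.56 ± 0.88 (SE, log2) at 25 DPI and -0.17 ± 0.87 at 52 DPI, with adjusted p-values of 1.0.

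Btc encodes betacellulin, a ligand best known in skin from hair follicles. It was at 5.88 and 2.51 CPM in replicate 1 at 25 DPI (90 and 22 counts) and at 1.53 and 2.94 CPM in replicate 2. In the 52 DPI libraries it reached 1.67 and 1.98 CPM in replicate 1 and 1.49 and 8.11 CPM in replicate 2 (19 and 124 counts). The difference in the last pair, 2.45 on the log2 scale, was a 5.45-fold ratio, exceeded among the members by Ereg alone (ratios of 8.93 and 0.0927 on few counts), and the other pair of that time differed by 0.25. The iDKO-labelled library with the highest Btc also held 201.2 CPM of the 6 matched markers of hair shaft and inner root sheath, against 1.34 to 13.3 CPM in the others, with 0 to 2 of the 6 at 0 counts in a library. The second highest Btc and the second highest sum of those markers were both in control replicate 1 at 25 DPI. Krt31, the first marker of that list, was at 0.114 to 2.29 CPM, highest in that control library and at 0.458 CPM in the library with the highest Btc. These 2 libraries also had the largest sums of T cell markers (682.9 CPM in the control library and 419.0 CPM in the iDKO-labelled one). The same held for erythroid markers (110.9 and 18.3 CPM), so the match was not particular to hair markers. Whether hair follicle or other cells account for the Btc values was not tested. The gene whose log2 CPM was most like that of Btc over the 8 libraries was Hoxc13, a hair keratin regulator (r = 0.98, n = 8). The edgeR estimate for Btc was 1.67 ± 0.94 (SE, log2) at 52 DPI with an adjusted p of 1.0, and 0.33 without iDKO replicate 2 at 52 DPI.

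Ereg encodes epiregulin and was near the limit of detection. Its counts in the control and iDKO-labelled libraries were 1 and 1 in replicate 1 and 18 and 88 in replicate 2 at 25 DPI, and 12 and 38 in replicate 1 and 27 and 3 in replicate 2 at 52 DPI. The same libraries in CPM were at 0.0654, 0.114, 0.357 and 3.19 at 25 DPI and at 0.445, 1.19, 2.12 and 0.196 at 52 DPI. One iDKO-labelled library, replicate 2 at 25 DPI, held the highest value and another, replicate 2 at 52 DPI, held 3 counts while its control held 27. The pair differences at 25 and 52 DPI ran from -1.91 to 2.11 (log2, with 0.5 CPM added to both sides). The edgeR estimates for Ereg were 2.88 ± 1.70 (SE, log2) at 25 DPI and -0.83 ± 1.59 at 52 DPI, with adjusted p-values of 1.0.

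Errfi1 encodes the inhibitor that the pathway induces. It was at 327.8 and 314.9 CPM in replicate 1 at 25 DPI and at 233.7 and 274.7 CPM in replicate 2. The corresponding values at 52 DPI were 309.2 and 205.7 CPM in replicate 1 and 245.5 and 157.2 CPM in replicate 2. At 52 DPI both iDKO-labelled values lay below both control values, with ratios of 0.665 and 0.64 in the 2 pairs, and at 25 DPI the groups overlapped. As for Hbegf, the share of all genes that separate in this way is not given here. The edgeR fit at 52 DPI gave -0.61 ± 0.50 (SE, log2, 95% interval -1.78 to 0.55) with an adjusted p of 1.0. Within pairs it gave -0.62 ± 0.22 with an interval of -1.13 to -0.10, an unadjusted p of 0.0258 and an adjusted p of 1.0. DESeq2 with the block within time gave -0.63 ± 0.25 with an unadjusted p of 0.013 and an adjusted p of 0.587. Leaving out 1 library at a time kept the edgeR estimate between -0.82 and -0.42.

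**Figure D2:**
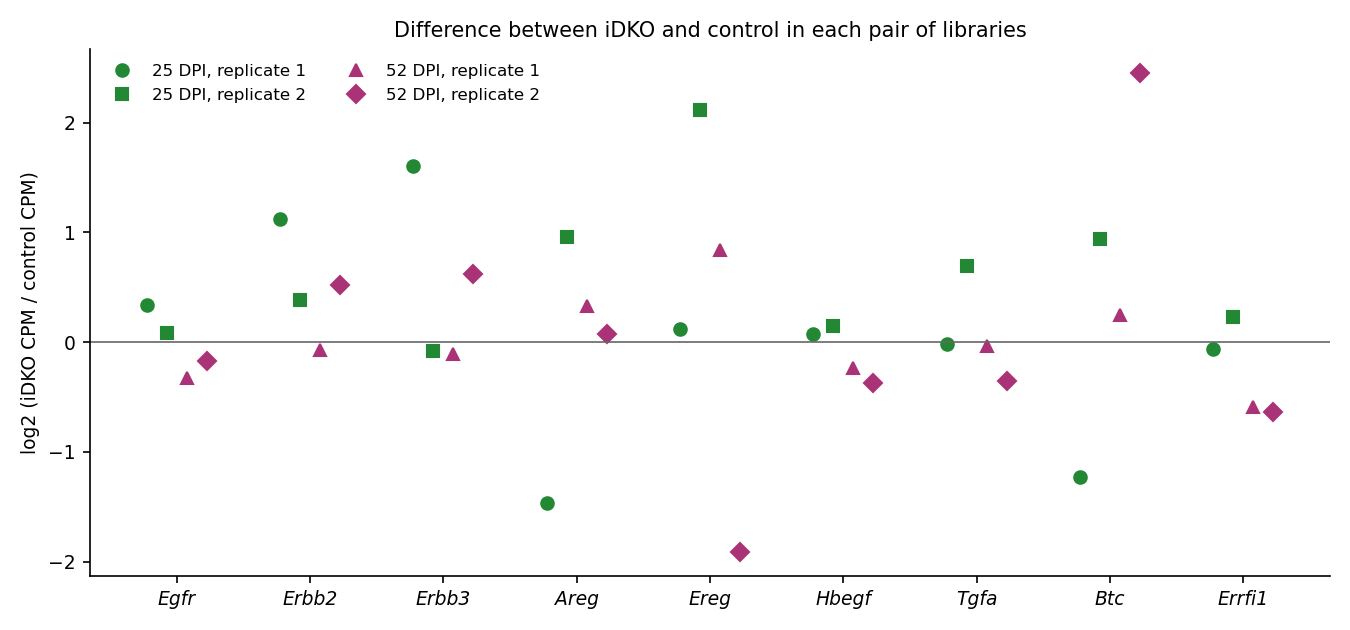
Difference between the iDKO-labelled and the control library of the same time and replicate number (log2 ratio of CPM, with 0.5 CPM added for Ereg) for each gene. Green marks are pairs at 25 DPI and purple marks pairs at 52 DPI. Egfr and Hbegf lie above 0 in both green and below 0 in both purple pairs, Errfi1 is at -0.59 and -0.64 at 52 DPI, and Areg, Ereg and Btc spread on both sides.

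At 25 DPI 7 members had a higher and 2 a lower estimate where labelled iDKO, with a median of 0.15 on the log2 scale against -0.03 over all 17839 genes tested, 47.5% of which were higher. The edgeR quasi-likelihood test without a block called 0 of 9 members at an adjusted p under 0.05, and 0.0% of all genes. At an unadjusted p under 0.05 it gave 0 members and 0.42% of genes. With the block within time it called 0 members and 0.0% of genes. At an unadjusted p under 0.05 that fit held 1 member, Erbb2, and 6.51% of genes. DESeq2 with the same block called 0 members and 0.734% of the 14034 genes to which it gave an adjusted p. Ereg was not among those. DESeq2 without a block and limma-voom called 0 members as well.

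At 52 DPI 4 members were higher and 5 lower, with a median of -0.17 against -0.01 over all genes, 48.4% of which were higher. The edgeR test called 0 of 9 members and 0.0% of genes, and at an unadjusted p under 0.05 held 0 members and 0.802% of genes. With the block within time it called 0 members and 0.0% of genes. There 1 member, Errfi1, had an unadjusted p under 0.05, as had 4.28% of genes. DESeq2 with the block called 0 members and 0.196% of genes. DESeq2 without a block and limma-voom called 0 members.

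The difference between the effects at the 2 times was negative for 6 of 9 members, with a median of -0.39 against 0.02 over all genes. The edgeR test called 0 members and 0.0% of genes, and at an unadjusted p under 0.05 held 0 members and 0.779% of genes. With the block within time it called 0 members and 0.0% of genes and had 0 members and 6.26% of genes at an unadjusted p under 0.05. There 7 of 9 members were negative, and the smallest unadjusted p was 0.0558 for Errfi1 (-0.70 ± 0.30, SE, log2). DESeq2 with the block called 0 members and 0.253% of genes. As the direction seen in Egfr and Hbegf did not pass the test, a difference between times was not shown for them.

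Across both times 5 members were higher and 4 lower, with a median of 0.20 against -0.02 over all genes, 46.6% of which were higher. The edgeR test called 0 members and 0.0% of genes, with 0 members and 0.729% of genes at an unadjusted p under 0.05. With the block within time it called 0 members and 1 gene, 0.00561% of those tested, and had 0 members and 4.02% of genes at an unadjusted p under 0.05. DESeq2 with the block called 0 members and 0.444% of genes. Erbb2 had the smallest unadjusted p of the members with the block in edgeR, 0.0579 at 0.48 ± 0.21 (SE, log2), and an adjusted p of 0.996. For Hbegf the block narrowed the estimate to -0.10 with a 95% interval of -0.46 to 0.27, and for Egfr to -0.02 with an interval of -0.42 to 0.37.

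**Figure D3:**
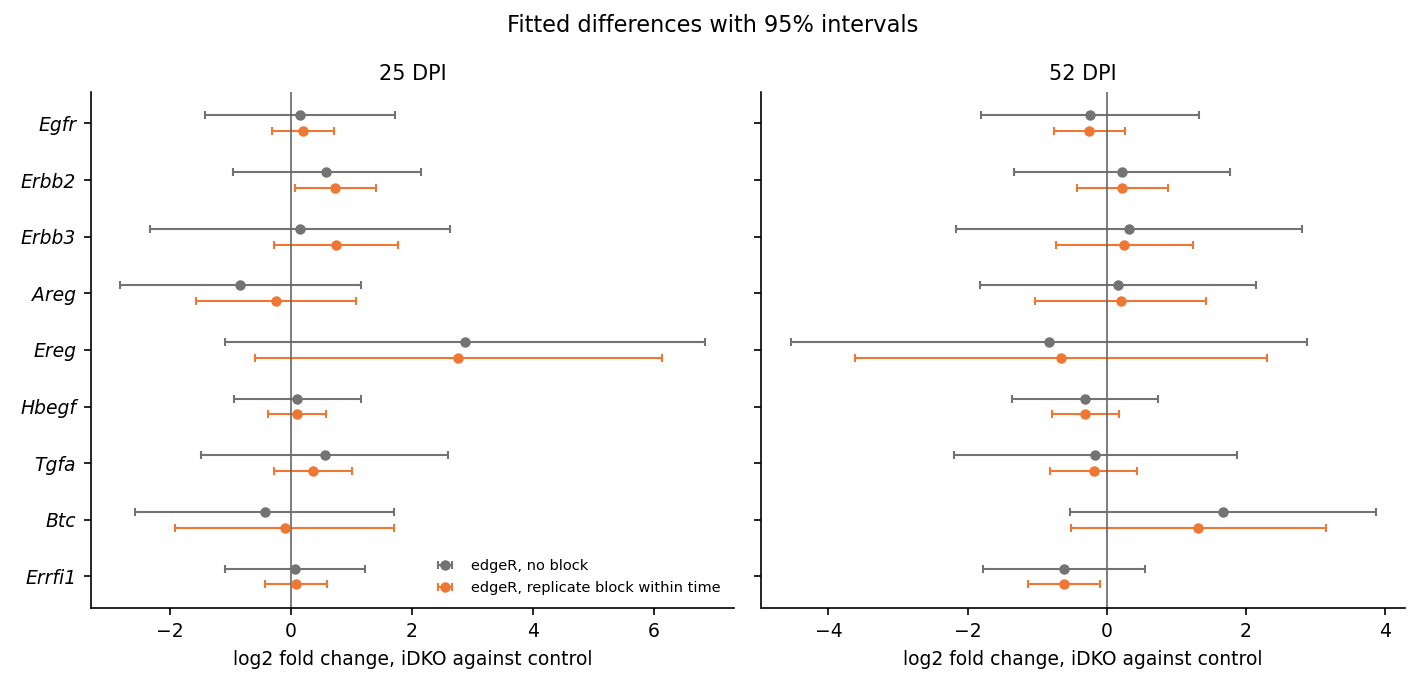
Fitted log2 fold change of libraries labelled iDKO against control at 25 DPI (left) and 52 DPI (right), with 95% intervals, from edgeR without a block (grey) and with the replicate block within time (orange). The grey intervals all include 0, and with the block those of Erbb2 at 25 DPI and of Errfi1 at 52 DPI do not, before adjustment over all genes.

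Between 25 and 52 DPI, over both labels, 5 members were higher and 4 lower at 52 DPI. The edgeR test called 0 of 9 members and 0.0224% of genes. At an unadjusted p under 0.05 it held 0 members and 4.04% of genes, and adjusted p-values of the members ran from 0.862 to 0.979. Estimates ran from -0.61 ± 0.59 (SE, log2) for Areg to 0.59 ± 0.59 for Tgfa. Xist, which is expressed from the inactive X of female cells, had 0.119 to 0.342 CPM in the 25 DPI libraries and 131.1 to 1139.4 CPM in the 52 DPI ones, so time and sex cannot be told apart.

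Of the summed level of the 5 ligands per kilobase of exon, Hbegf made up 52.1% to 74.0% in 7 libraries and 37.0% in control replicate 1 at 25 DPI. Areg made up 17.1% to 38.2% in those 7 libraries and 60.3% in that control library. Tgfa gave 1.18% to 11.9%, Btc 0.584% to 3.6% and Ereg 0.0187% to 1.36%. On this scale Hbegf thus had the highest level among these 5 ligands in both labels and at both times outside that library. Epgn, which is not in that sum, ran from 14.6 to 126.1 CPM per kilobase and lay above Hbegf in 5 of the 8 libraries. Among the receptors, Egfr made up 13.2% to 31.0% of the summed level, Erbb2 29.4% to 47.6% and Erbb3 23.1% to 52.8%. Egfr had its largest share, 31.0%, in the same control library, where the summed receptor level was 27.8 CPM per kilobase against 58.0 to 158.5 in the others.

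**Figure D4:**
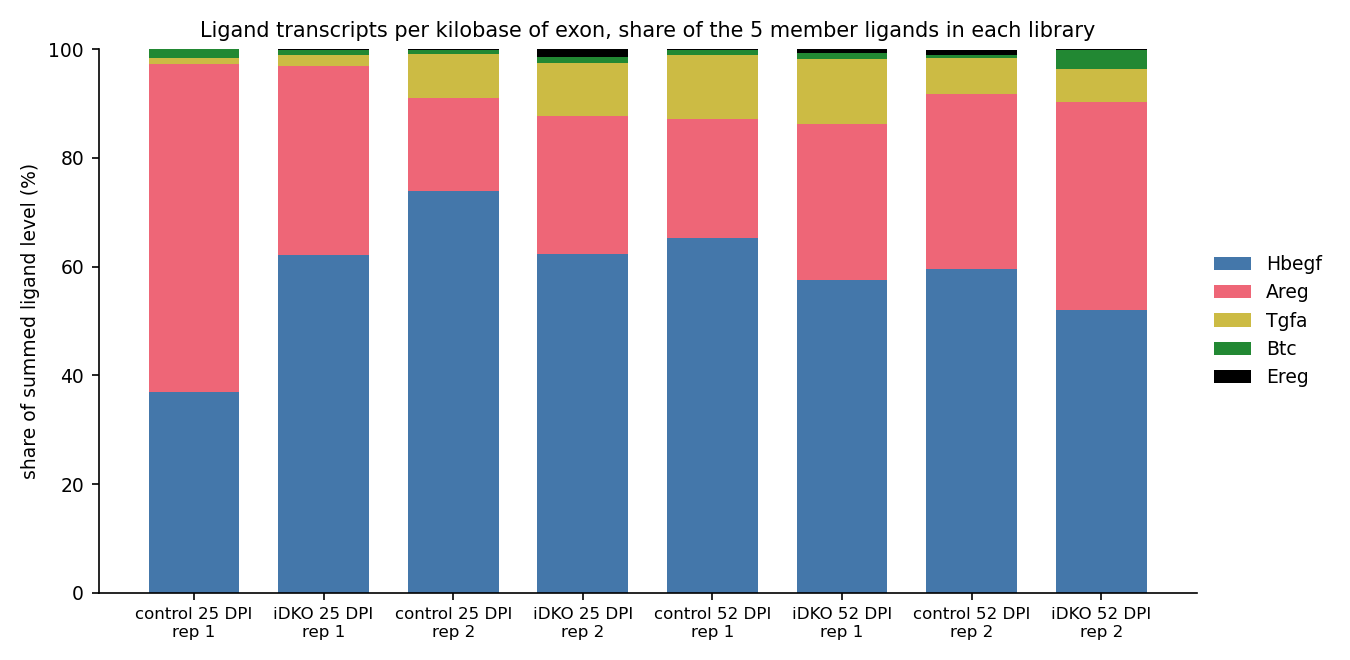
Share of each of the 5 ligands in their summed level (CPM per kilobase of exon, percent, vertical axis) in the 8 libraries, placed in pairs of control and iDKO-labelled library. Hbegf is the largest part in 7 of 8 bars and Areg, at 60.3%, in the bar of control replicate 1 at 25 DPI.

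The genes whose log2 CPM most resembled each member over the 8 libraries were named by Pearson's r among 11679 coding genes. They were Camsap2 and Cdv3 for Egfr (r of 0.996 and 0.993), Oplah and Upf1 for Erbb2 (0.992 and 0.99) and Max and Dpp8 for Erbb3 (0.996 and 0.995). For the ligands they were Lsm12 and Fdft1 for Areg (0.981 and 0.963), Vsir and Palld for Ereg (0.95 and 0.926), Olfm2 and Stx4a for Hbegf (0.928 and 0.917) and Poc1b and Ripor1 for Tgfa (0.99 and 0.989). Prss22 was the second gene for Btc (0.965), and Adm and Zfp644 were those for Errfi1 (0.978 and 0.931). With 8 libraries that share replicate number and depth, such values describe these libraries only.

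Of the 7 other receptors and ligands of the family, 5 were tested. Erbb4, which encodes the fourth receptor, and Nrg3 had too few counts. By edgeR 0 of 5 were called in any genotype comparison, with or without the block within time. Nrg4, Nrg2 and Egf, named by the smallest p-values across both times with the block, had estimates of -0.19 ± 0.35, -0.14 ± 0.31 and -0.06 ± 0.34 (SE, log2).

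Epgn, the ligand gene epigen and the outermost of the cluster on chromosome 5 (91027464 to 91035215), is named here after its values were seen. It was at 26.3 and 62.5 CPM in replicate 1 at 25 DPI and at 106.0 and 227.8 CPM in replicate 2. At 52 DPI Epgn stood at 71.6 and 37.8 CPM in replicate 1 and at 96.5 and 31.0 CPM in replicate 2. Epgn was thus higher in both iDKO-labelled libraries at 25 DPI, by 1.25 and 1.10 on the log2 scale, and lower in both at 52 DPI, by -0.92 and -1.64. DESeq2 with the block within time called it at 25 DPI (1.16 ± 0.30, SE, log2, adjusted p = 0.0261), at 52 DPI (-1.29 ± 0.30, adjusted p = 0.0146) and for the difference between times (-2.45 ± 0.43, adjusted p = 7.06e-05). The edgeR test with the same block gave estimates of 1.17, -1.28 and -2.45 but adjusted p-values of 0.592, 1.0 and 0.793, and without a block 1.0 for each. With 1 pair left out, DESeq2 still called the difference in 3 of 4 cases, and gave an adjusted p of 1.0 without the replicate 2 pair at 52 DPI. The call at 25 DPI was lost whichever pair was left out (adjusted p of 0.114 to 0.282). The DESeq2 call at 52 DPI was lost without the replicate 1 pair of that time (adjusted p = 0.105) and without its replicate 2 pair (1.0), and held without either pair of 25 DPI (0.00299 and 0.0164). Neither Areg, Ereg nor Btc, the neighbours of Epgn, was higher in both pairs of 25 DPI and lower in both of 52 DPI. The members Egfr and Hbegf were, as were Myc, Fosl1 and Nr4a1 of the lists below. The share of all genes with this pattern is not given here.

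**Figure D5:**
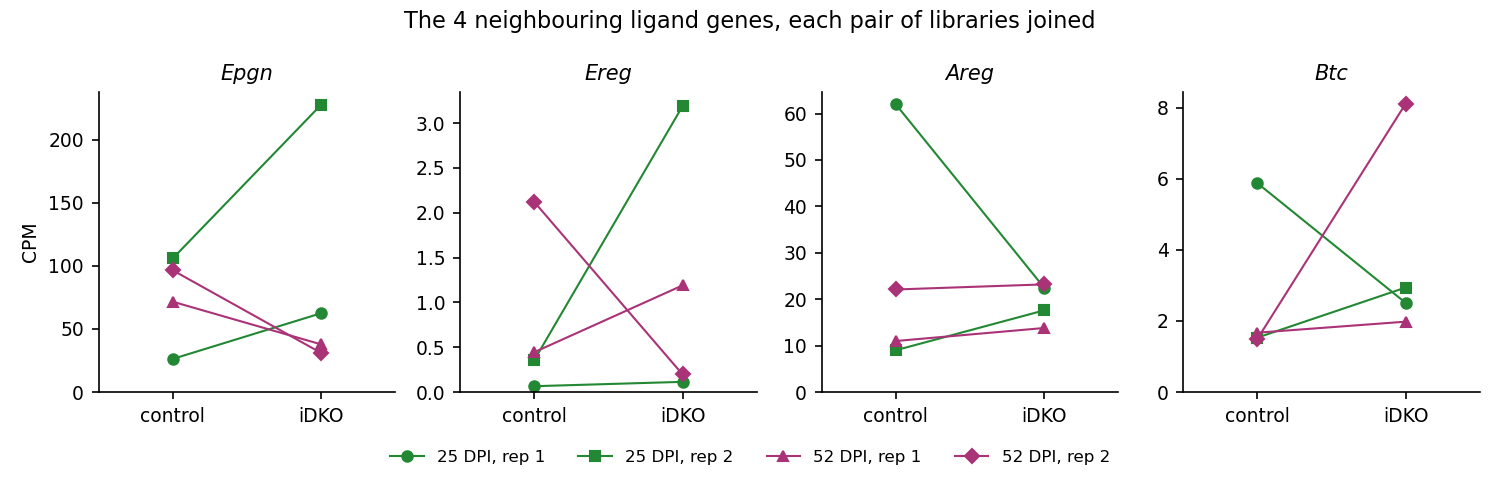
CPM (vertical axis, from 0) of Epgn, Ereg, Areg and Btc, the 4 ligand genes of the chromosome 5 cluster, in the control and iDKO-labelled library of each pair, joined by a line (green 25 DPI, purple 52 DPI). Both green lines of Epgn go up and both purple lines go down, and the lines of the other 3 genes do not divide by time.

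The list for ligand shedding holds ADAM proteases, their partners and the inhibitor Timp3. Of its genes 8 of 9 were tested and 0 were called by edgeR, with or without the block, or by DESeq2 with it. At 25 DPI 8 of 8 had a higher estimate where labelled iDKO (median 0.30 on the log2 scale, and 0.44 within pairs), and at 52 DPI 2 of 8 (median -0.07). Over all genes tested, for this list and those below, 47.5% were higher at 25 DPI and 48.4% at 52 DPI. The pair medians were 0.70 and 0.09 at 25 DPI and -0.15 and -0.01 at 52 DPI, so most of the first value came from the replicate 1 pair. In that pair coding genes with over 5 kb of exon differed by a median of 0.31. The tested genes of the list have 4115 to 8144 bases of exon, and the part of length in their values was not tested. Rhbdf2, a rhomboid-like partner of the protease ADAM17, was at 60.5 and 62.6, 72.2 and 157.5, 105.6 and 106.3, and 108.8 and 218.6 CPM in the 4 pairs. It was higher in 4 of 4 pairs where labelled iDKO, with the larger differences in both pairs of replicate 2, at 0.55 ± 0.24 (SE, log2) within pairs with an adjusted p of 0.996 by edgeR. Adam10, a sheddase of betacellulin, and Timp3, an inhibitor of sheddases, were each higher in 3 of 4 pairs, at 0.28 ± 0.18 and 0.29 ± 0.27. The 6 dermal fibroblast markers summed to 7.91 and 9.81, 51.9 and 159.6, 15.8 and 16.6, and 16.8 and 116.6 CPM in the same 4 pairs, with 0 or 1 of the 6 at 0 counts in a library and Col1a1 at 0.719 to 55.4 CPM. That sum was also higher in 4 of 4 pairs where labelled iDKO, with the larger differences in both pairs of replicate 2. The part of fibroblasts in the Rhbdf2 and Timp3 values was not tested.

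Of the genes that restrain or traffic the receptors 14 of 15 were tested and 0 were called by edgeR. At 25 DPI 11 of 14 were higher where labelled iDKO (median 0.14) and at 52 DPI 5 of 14 (median -0.05). The pair medians of this list were 0.54 and -0.01 at 25 DPI and -0.19 and 0.06 at 52 DPI, so the pairs of each time differed in sign. The part of gene length in the replicate 1 pair at 25 DPI was not tested for this list or the next. The phosphatase gene Ptpn12 and the suppressor Socs5 had estimates within pairs across both times of 0.41 ± 0.21 and 0.27 ± 0.16 (SE, log2), and Socs4 of 0.17 ± 0.17. Among the 25 adaptors and kinases, all tested and 0 called, 15 were higher at 25 DPI (median 0.06) and 9 at 52 DPI (median -0.03), with pair medians of 0.33 and 0.06 and of -0.03 and -0.05. Plcg1, Braf and Pik3r1 had the smallest p-values there, at 0.51 ± 0.24, 0.37 ± 0.22 and -0.36 ± 0.22 within pairs. Plcg1, a phospholipase that docks on the receptor and has 7857 bases of exon, was higher in 4 of 4 pairs. It stood at 18.9 and 48.1 CPM in the replicate 1 pair at 25 DPI but at 126.5 and 127.4 CPM in the replicate 2 pair. The share of all genes higher in 4 of 4 pairs is not given here.

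Targets and feedback inhibitors of ERK were followed as RNA, which also responds to other inputs, and the activity of the pathway was not measured. All 16 were tested and edgeR called 0. At 25 DPI 10 were higher where labelled iDKO (median 0.21) and at 52 DPI 4 (median -0.26). By pair the medians were 0.05 and 0.51 at 25 DPI and -0.26 and -0.35 at 52 DPI, so the first was near 0 in the replicate 1 pair. Etv5, a transcription factor of the ETS family, was at 9.22 and 20.0 CPM and at 20.8 and 55.9 CPM in the pairs at 25 DPI, and at 54.9 and 57.1 and at 32.1 and 24.9 CPM in those at 52 DPI. DESeq2 with the block called Etv5 at 25 DPI (1.27 ± 0.31, SE, log2, adjusted p = 0.0105). It was not called with any 1 pair left out (adjusted p of 0.0643 to 0.357) nor by edgeR with the block (adjusted p = 0.554). Ccnd1, which encodes cyclin D1, and Myc had estimates within pairs across both times of -0.32 ± 0.18 and -0.25 ± 0.21.

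Immediate-early genes respond to the pathway and also to the dissociation of tissue. Of 13, all tested, 10 were higher at 25 DPI (median 0.19) and 3 at 52 DPI (median -0.38), and edgeR and DESeq2 with the block called 0. At an unadjusted p under 0.05, DESeq2 with the block held 5 at 25 DPI, 3 at 52 DPI and 7 for the difference between times. Over all 17839 genes that fit held 1193, 945 and 1234. For edgeR with the block these were 1, 1 and 2 of the list, and 1162, 764 and 1116 of all genes. The medians by pair were 0.28 and 0.16 at 25 DPI and -0.08 and -0.79 at 52 DPI, where most of the value lay in the replicate 2 pair. Fos was at 9404.2 and 11383.2 CPM in the replicate 1 pair at 25 DPI and at 2304.0 to 4890.0 CPM in the other libraries. Jun and Dusp1 had estimates of -0.23 ± 0.23 and -0.21 ± 0.24 (SE, log2) within pairs across both times. The part of dissociation in the values of Areg, Hbegf and Errfi1, whose levels also respond to stress, was not tested.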

How the data were processed

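The deposited tables, 1 per library, hold raw read counts for each gene in the column layout that STAR writes. The submitters' processing notes name STAR 2.5.2a, Trimmomatic 0.35, FastQC 0.11.9 and DESeq2 1.24.0, and the builds GRCm38 and mm10. Per the labels' protocols Trizol RNA went into a SMART-seq v4 low-input kit. They name this 1 kit, although the strand shares differ between replicates 1 and 2, so whether all libraries were made alike is not known. Settings and annotation release: not given in the sources used here. Counts without regard to strand were used, and 54809 of 54838 identifiers matched GENCODE M21. Reads that near-identical genes share cannot be separated.

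Counts were tested with edgeR 4.0.16 (R 4.3.3, filterByExpr on 4 groups, 17839 genes, TMM, quasi-likelihood) over all 8 libraries, and p-values were adjusted over these genes by Benjamini and Hochberg (called: adjusted p under 0.05). DESeq2 1.42.0, limma-voom (limma 3.58.1), other scaling, no filter, second-strand counts, libraries left out and replicate blocks were alternatives. The scripts were tested on simulated data, where DESeq2 with the block called more unchanged genes than edgeR did. Deviations of same-numbered libraries from their group means correlated at 0.395 to 0.793 between groups over 17839 genes, so the labels' replicate numbers were taken to pair libraries. The pairing cannot be told apart from the difference in strand between replicates.

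Named were the 9 members, the marker lists by their sums, the 3 genes of each of 6 pathway lists with the smallest p across both times under the block within time, and 2 like genes a member among those with mean log2 CPM from 1 up. Epgn, other genes of the lists called by DESeq2 with the block, and the TGACGTCA motif were added after the data were seen. Members and lists were chosen with earlier results of these data known.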

Additional observations from a re-analysis of the deposited data

Results flagged for a closer look

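Whether the effect of the iDKO label on Epgn differed between the times depended on the test used. A test of the difference itself called it in DESeq2 when pairs were blocked, but not in edgeR. On simulated data that kind of DESeq2 fit called more unchanged genes than edgeR did, so a difference is not taken as shown. The effect at 52 DPI minus that at 25 DPI was -2.45 ± 0.43 (SE, log2) by DESeq2, run with a replicate block within time, at an adjusted p of 7.06e-05. The iDKO-labelled library was the higher one in 2 of 2 pairs at 25 DPI and the lower one in 2 of 2 pairs at 52 DPI. The share of all genes with this pattern is not given here. The adjusted p was 0.793 by edgeR with the same block and 1.0 without a block. With 1 pair left out, so that 1 pair stood for its time, the DESeq2 estimate ran from -2.79 to -2.11. The difference was not called without the replicate 2 pair at 52 DPI. Epgn was picked out after its values were seen, and time cannot be told apart from sex in these libraries.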

How the results depend on the processing

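Depth limits Ereg, with 1 to 88 counts a library, and Btc, with 19 to 124. The count of members called was 0 in the edgeR fits of all 5 comparisons, under TMM or RLE scaling, with or without the filter, with the replicate block over all groups, with second-strand counts, with each library left out, and by DESeq2 and limma-voom on all libraries. It was also 0 with the edgeR replicate block within time in the 4 comparisons of genotype. With DESeq2, the replicate block within time and 1 pair left out, 0 or 1 was called at 25 DPI.

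Of all genes, edgeR called 0 at 25 DPI, at 52 DPI, for their difference and across both times, and 4 for 52 against 25 DPI. Without the filter these were 8, 25, 19, 16 and 184. DESeq2 without a block called 2, 1, 0, 8 and 72, and with the replicate block within time 103, 35, 39 and 73 for the first 4. The edgeR replicate block within time called 1 across both times and cannot be fitted for 52 against 25 DPI, where it absorbs the time. The replicate block over all groups changed no call of a member. Second-strand counts called 1 gene for 52 against 25 DPI. Leaving out 1 library in edgeR called 0 in each genotype comparison and 0 to 2 for 52 against 25 DPI. Leaving out 1 pair in DESeq2 with the block called 38 to 495, 2 to 152, 0 to 584 and 15 to 274 in the genotype comparisons, and in edgeR with the block 0 to 2 across both times. The cause was not tested.

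The sign of an uncalled member changed in 58 of 702 values over 4 comparisons. The difference between times was not among these, and there Erbb3 turned from 0.17 to -0.49 with the replicate block within time. Limma-voom gave 0.01 for Areg across both times and 0.10 for Btc at 25 DPI, and the replicate block over all groups gave 0.15 for Ereg at 52 DPI (log2). With 1 library or pair left out, log2 estimates whose sign turned ran as follows. At 25 DPI they ran from -0.57 to 1.11 for Egfr, -0.03 to 1.68 for Erbb2, -0.98 to 2.80 for Erbb3, -1.60 to 1.11 for Areg, -0.93 to 4.62 for Ereg, -1.16 to 1.76 for Tgfa, -1.23 to 0.94 for Btc, -0.12 to 0.29 for Errfi1 and -0.06 to 2.5 for Epgn. Across both times they ran from -0.36 to 0.27 for Egfr, -0.15 to 1.18 for Erbb3, -0.59 to 0.52 for Areg, -0.85 to 2.17 for Ereg, -0.19 to 0.02 for Hbegf, -0.53 to 0.52 for Tgfa and -0.11 to 1.31 for Btc. For 52 against 25 DPI they ran from -0.05 to 0.52 for Egfr, -0.86 to 0.29 for Areg, -0.35 to 2.48 for Ereg and -0.86 to 0.55 for Btc. At 52 DPI they ran from -0.10 to 0.53 for Erbb2, -0.19 to 0.70 for Erbb3, -0.26 to 0.76 for Areg, -3.42 to 1.4 for Ereg and -0.54 to 0.13 for Tgfa.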
